A study of Mus musculus with 2 samples.

Results

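The cyclins, the cyclin-dependent kinases (CDKs) and the proteins that restrain or trigger them were measured in the embryonic mouse midbrain. Members were the protein-coding genes whose symbol marks them as a cyclin from A to L, a Cdk kinase, an inhibitor of the Cdkn1a/b, Cdkn2a to d or Cdkn3 type, a Cdc25 phosphatase, a Cks subunit or the kinase Wee1. The rule found 52 of the 43346 genes in the tables, of which 21474 were protein-coding. They comprised 20 cyclins, 19 CDKs, 7 Cdkn genes, 3 Cdc25 genes, 2 Cks genes and Wee1. The choice went by symbol and not by an expression value, although the rule was set with earlier results of these data known.

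Total RNA came from the midbrain of healthy B6NCrl embryos of both sexes at embryonic day 11.5, with no transgene, deletion or treatment named. There was 1 group with 2 biological replicates, each 1 library from a pool, of 109 embryos in replicate 1 and of 88 in replicate 2. RNA of more than 200 nt was sequenced from 10 ng of input with ERCC spike-in RNAs added. With a single group there was no contrast between conditions, so the results are levels, their order, and the agreement of the libraries. Because each library is a pool, the SD given here (n = 2) describes pools and not single embryos.

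A cyclin binds a CDK and switches it on, and the successive rise and destruction of different cyclins orders the phases of the division cycle. D-type cyclins with Cdk4 or Cdk6 act in G1, E-type cyclins with Cdk2 at entry into S phase, and A- and B-type cyclins with Cdk1 or Cdk2 from S phase to mitosis, while INK4 and CIP/KIP proteins block these kinases. Other members of the families, such as Cdk7, Cdk8 and Cdk9, act in transcription, and Cdk5 is known for its role in neurons. At midgestation the neuroepithelium of the midbrain contains dividing progenitors and their first neurons.

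The libraries held 41760197 and 49256468 expected counts, with 38884247 and 45975100 on genes, so 3 counts stood for 0.0772 and 0.0653 CPM (counts scaled to library size). Members took 0.745% and 0.762% of the counts on genes. All 6 midbrain markers (such as Otx2 and En1) reached 1 TPM (a level scaled to transcript length and library size) in both libraries, and none of 4 Hox genes of hindbrain and spinal cord did, at a summed 0.260 and 0.120 TPM with Hoxc8 and Hoxb9 at 0 counts. Other cells were present: summed marker levels were 2459.6 and 2526 TPM for neural progenitors, 1209.9 and 1217 TPM for neurons, 12960.4 and 13032 TPM for embryonic erythroid cells, 592 and 558 TPM for mesenchyme, 73.8 and 71.1 TPM for endothelium and 41.8 and 43.6 TPM for microglia and macrophages. The part of each cell type in the members' levels was not tested, and in bulk tissue fewer cells of a type and less RNA per cell cannot be told apart.

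Most members were expressed. At least 1 TPM in both libraries was reached by 46 of 52 members, against 58.2% of all protein-coding genes. The level of 10 TPM was reached by 39 members (37.6% of all) and 100 TPM by 12 members (6.77% of all). The median member level was 41.3 TPM, against 18.5 TPM over the protein-coding genes that reached 1 TPM. The 6 members below 1 TPM in a library were Ccna1, Ccnb3, Cdk15, Cdk18, Cdkn2a and Cdkn2b.

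**Figure D1:**
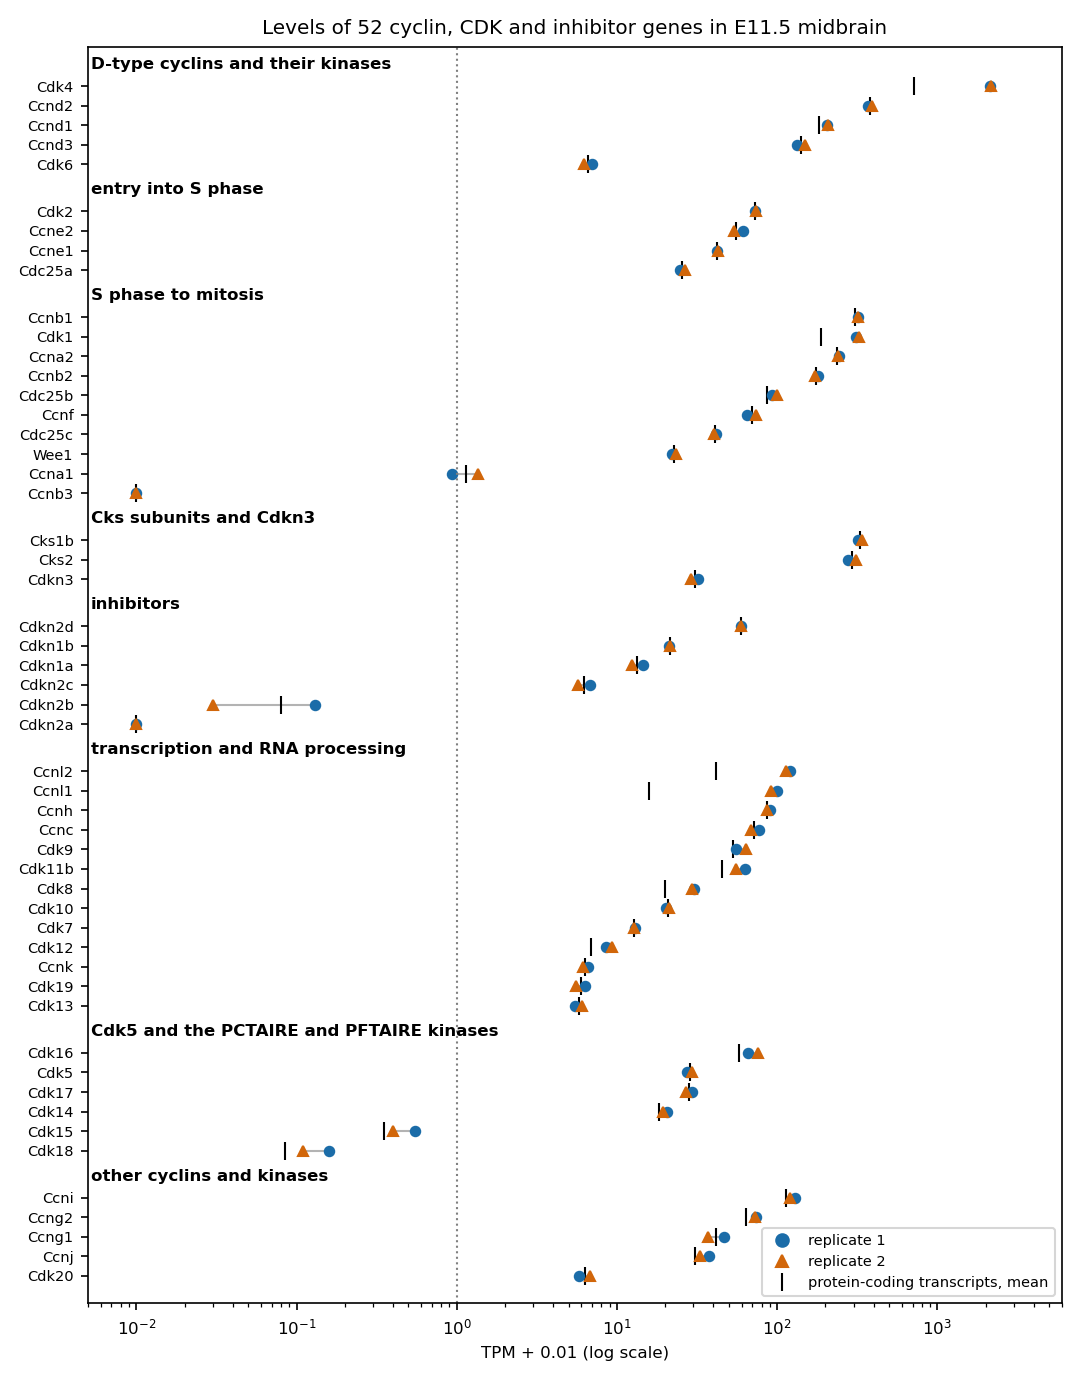
Level of each of the 52 members, TPM + 0.01 on a log axis, grouped by role; circles are replicate 1, triangles replicate 2, and black bars the mean of the protein-coding transcripts alone. The libraries lie close together for nearly every member, Cdk4 stands at the top near 2151 TPM, and its protein-coding part lies at 710.5 TPM.

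The start regions of 6 members are printed here, those highest in mean TPM among the members with an entry and a motif, so that the letters in front of the most abundant messages can be read. They run from 250 bases before to 50 after the annotated start, 5′ to 3′ on the gene's strand, from RefSeq on GRCm38.p6. Capitals mark 4 kinds of motif on either strand: the cell-cycle homology region (CHR, TTTGAA), the E2F letters (TTTCCCGC, TTTGGCGC or TTTCGCGC), the CCAAT box (CCAAT) and the GC box (GGGCGG).
Cdk1 promoter, chr10:69352863-69353162, minus strand: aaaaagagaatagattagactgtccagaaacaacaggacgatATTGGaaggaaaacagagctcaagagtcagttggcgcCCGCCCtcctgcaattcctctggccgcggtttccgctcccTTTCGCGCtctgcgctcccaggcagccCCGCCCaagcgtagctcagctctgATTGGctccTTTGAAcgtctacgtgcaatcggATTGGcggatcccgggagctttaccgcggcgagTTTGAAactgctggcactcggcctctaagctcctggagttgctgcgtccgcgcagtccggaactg
Ccnb2 promoter, chr9:70421505-70421804, minus strand: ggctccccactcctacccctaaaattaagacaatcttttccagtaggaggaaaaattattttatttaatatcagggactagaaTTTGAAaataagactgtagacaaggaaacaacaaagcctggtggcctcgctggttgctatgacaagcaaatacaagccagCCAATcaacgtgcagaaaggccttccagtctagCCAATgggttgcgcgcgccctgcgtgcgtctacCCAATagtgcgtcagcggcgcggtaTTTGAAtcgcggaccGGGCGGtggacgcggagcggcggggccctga
Cks1b promoter, chr3:89418242-89418541, minus strand: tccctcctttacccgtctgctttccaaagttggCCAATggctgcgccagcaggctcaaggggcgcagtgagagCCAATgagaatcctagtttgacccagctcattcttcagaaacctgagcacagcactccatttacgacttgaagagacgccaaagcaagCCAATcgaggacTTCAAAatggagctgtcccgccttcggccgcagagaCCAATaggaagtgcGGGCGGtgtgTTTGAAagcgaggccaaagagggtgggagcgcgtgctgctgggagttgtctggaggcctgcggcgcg
Ccnb1 promoter, chr13:100786437-100786736, minus strand: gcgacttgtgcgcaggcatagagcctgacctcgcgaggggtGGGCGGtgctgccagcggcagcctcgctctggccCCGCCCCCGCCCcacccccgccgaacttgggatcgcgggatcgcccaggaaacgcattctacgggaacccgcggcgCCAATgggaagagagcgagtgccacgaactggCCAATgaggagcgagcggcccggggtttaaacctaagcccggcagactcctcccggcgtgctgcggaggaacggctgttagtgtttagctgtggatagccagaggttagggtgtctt
Cks2 promoter, chr13:51644982-51645281, plus strand: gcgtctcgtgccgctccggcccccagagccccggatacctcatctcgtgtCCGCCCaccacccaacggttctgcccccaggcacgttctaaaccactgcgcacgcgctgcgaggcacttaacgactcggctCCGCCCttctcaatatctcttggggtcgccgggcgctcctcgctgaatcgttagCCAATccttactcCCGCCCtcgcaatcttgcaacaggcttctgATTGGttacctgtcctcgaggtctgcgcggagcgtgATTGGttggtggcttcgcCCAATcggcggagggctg
Cdk4 promoter, chr10:127063285-127063584, plus strand: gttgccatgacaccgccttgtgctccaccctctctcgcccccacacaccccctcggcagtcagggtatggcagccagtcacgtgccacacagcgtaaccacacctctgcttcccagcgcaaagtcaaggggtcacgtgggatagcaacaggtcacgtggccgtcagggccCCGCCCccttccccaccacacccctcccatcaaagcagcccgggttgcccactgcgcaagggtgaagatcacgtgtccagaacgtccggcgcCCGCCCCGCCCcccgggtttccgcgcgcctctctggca

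The Cdk1 window held every kind of motif searched: CHR letters starting 71 and 15 bases before the start, E2F letters at 131, and CCAAT boxes at 208, 80 and 48. The Ccnb2 window held CCAAT boxes 87, 54 and 21 bases before the start, and CHR letters 167 bases before and at base 5 after it. Cks1b had CHR letters at 77 and 17 bases before its start and 4 CCAAT boxes. Ccnb1, with CCAAT boxes at 99 and 67, and Cks2, with 4 CCAAT boxes, had no CHR letters in the window. The Cdk4 window held only GC boxes, 3 in number, of which 2 share bases.

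Of the 52 members, 42 had an entry, with 47 start regions in all. The entries lacked Ccna2, Ccnd1, Ccnd2, Ccne2, Ccnh, Cdc25c, Cdk5, Cdk17, Cdk19 and Wee1. CHR letters occurred in 8 member windows (17.0%), against 17.9% of all 32817 windows of this length. CCAAT boxes occurred in 25 (53.2% against 37.4%) and GC boxes in 39 (83.0% against 35.6%). E2F letters occurred in 4 (8.51% against 1.84%), those of Cdc25a, Cdk1, Cdk2 and Cdkn2a. CHR letters and a CCAAT box stood together in 6 windows (12.8% against 6.94%): Ccnb2, Ccnf, Cdk1, Cdk16, Cdkn3 and Cks1b. A match is a string of letters and not a measured binding site.

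The 5 D-type cyclins and their kinases held 47.0% of the members' summed TPM, at 2887 ± 61.3 TPM (SD, n = 2), most of it from Cdk4. Cdk4 (ENSMUSG00000006728, chr10:127063534-127067920, mm10), the G1 kinase, stood at 2129 and 2172 TPM and was the highest member in both libraries. Its partner paralogue Cdk6 (chr5:3341485-3531008) stood at 6.93 and 6.25 TPM. The ratio of Cdk4 to Cdk6 was 322 ± 27.8 on TPM + 0.1 and 107 ± 9.99 when only protein-coding transcripts were summed. Much of the Cdk4 level lay on short models that are not protein-coding. The leading model, Cdk4-209, is a retained-intron transcript of 468 nt with 42.4% and 42.1% of the gene's TPM. A model of the nonsense-mediated decay class, Cdk4-208, added 18.0% and 19.5%. The protein-coding transcripts of Cdk4 summed to 710.5 ± 15.6 TPM, which was still the highest coding sum of any member. Since TPM divides by length, a read on such a short model weighs more: protein-coding models held 50.7% and 50.5% of the gene's counts but 32.9% and 33.2% of its TPM.

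All 3 D-type cyclins, the regulatory subunits of Cdk4 and Cdk6, were abundant. Ccnd2 (chr6:127125162-127152193) stood at 371 and 393 TPM, Ccnd1 (chr7:144929931-144939925) at 204 and 209 TPM, and Ccnd3 (chr17:47505051-47599691) at 133 and 149.7 TPM. The order Ccnd2, Ccnd1, Ccnd3 held in both libraries with no overlap between their values. Ccnd2 made up 52.3% ± 0.0593 of the summed D-type cyclin TPM, Ccnd1 28.3% ± 0.740 and Ccnd3 19.3% ± 0.80 (SD, n = 2). Cdk4 exceeded the summed D-type cyclins, 730.1 ± 30.9 TPM, by 2.95 ± 0.0823 times over all transcripts. Over protein-coding transcripts alone that ratio was 1.007 ± 0.0204, above 1 in replicate 1 (1.02) and below it in replicate 2 (0.992). Annotated genes on the other strand overlap Cdk4 (Tspan31) and each D-type cyclin, namely Ccnd1 (LTO1), Ccnd2 (an antisense RNA) and Ccnd3 (Bysl), and any use of strand in the counting was not given in the sources used here.

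The genes for entry into S phase were lower, at a summed 198.4 ± 2.69 TPM or 3.23% of the members' total. Cdk2 (chr10:128697939-128705031), the kinase bound by cyclins E and A, stood at 72.6 and 73.5 TPM. Of the E-type cyclins, Ccne2 (61.1 and 53.6 TPM) was above Ccne1 (42.0 and 42.7 TPM) in both libraries, a ratio of Ccne1 to Ccne2 of 0.743 ± 0.0775. Cdc25a, the phosphatase that activates Cdk2 at the G1/S boundary, stood at 24.6 and 26.7 TPM. No gene of this group reached 100 TPM.

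The genes that act from S phase to mitosis summed to 1285 ± 11.2 TPM, 20.9% of the members' total, and 8 of 10 reached 10 TPM. Ccnb1 (chr13:100778650-100786570), the main mitotic cyclin, stood at 321 and 319 TPM, Ccna2 (chr3:36564865-36572150), the cyclin of S phase and G2, at 244 and 239 TPM, and Ccnb2 (chr9:70407692-70421547) at 179.6 and 172 TPM. Together these cyclins were 7.40 ± 0.251 times the summed E-type cyclins. Cdk1 (chr10:69335146-69352938), the kinase that drives mitosis, stood at 310.1 and 325 TPM, 4.34 ± 0.106 times Cdk2 on TPM + 0.1. The retained-intron models Cdk1-203 (378 nt) and Cdk1-204 (475 nt) held 22.1% and 17.6% of Cdk1's TPM on average. Its protein-coding transcripts summed to 189.0 ± 0.304 TPM, and the ratio to Cdk2 over such transcripts was 2.58 ± 0.0188.

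The regulators of Cdk1 kept the same order in both libraries. Cdc25b, a phosphatase that activates Cdk1 at entry into mitosis, stood at 93.1 and 99.8 TPM, Cdc25c at 41.3 and 40.5 TPM, and Cdc25a below both. Wee1, the kinase that puts the inhibitory phosphate on Cdk1, stood at 22.2 and 23.3 TPM. The Cdc25 genes summed to 7.16 ± 0.00879 times Wee1. Ccnf, which encodes an F-box protein that marks targets for destruction in G2, stood at 65.1 and 73.8 TPM.

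The germline members of this group were low. Ccna1, the cyclin A known from spermatocytes, had 36 and 63 counts, or 0.920 and 1.34 TPM, and Ccna2 exceeded it by 203 ± 51.9 times on TPM + 0.1 and 115 ± 17.8 times on TPM + 1. Ccnb3, known from meiosis, had 0 counts in both libraries, which allows up to 0.0772 and 0.0653 CPM. That limit covers counting error only.

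The small CDK-binding subunits Cks1b and Cks2 were among the 6 highest members. Cks1b (chr3:89415472-89418383), which also serves the SCF-Skp2 ubiquitin ligase, stood at 320.4 and 339 TPM, and Cks2 (chr13:51645232-51650660) at 278 and 311 TPM. Their ratio was 1.12 ± 0.0431, with intervals apart in both libraries. Cdkn3, a phosphatase that acts on the activating phosphate of CDKs, stood at 32.0 and 29.0 TPM.

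The inhibitors that are members by the rule had the lowest sum and the lowest median of the division-cycle groups. They summed to 100.5 ± 1.90 TPM or 1.64% of the members' total, with a median of 9.81 TPM. The D-type cyclins stood at 7.27 ± 0.445 times these summed inhibitors, which leave out Cdkn1c. Cdkn2d (chr9:21288410-21291407), the INK4 protein p19, stood at 59.3 and 59.6 TPM and made up 59.2% ± 1.34 of the inhibitor sum. Cdkn1b (p27) stood at 21.2 and 21.5 TPM, Cdkn1a (p21) at 14.4 and 12.3 TPM, and Cdkn2c (p18) at 6.77 and 5.68 TPM. The order of these 4 genes was the same in both libraries. Cdkn2a, the source of p16 and ARF, had 0 counts in both libraries, and its neighbour Cdkn2b (p15) had 4 and 1. The INK4 members summed to 65.8 ± 0.622 TPM and the CIP/KIP members of the list to 34.7 ± 1.28 TPM. The third CIP/KIP gene, Cdkn1c (p57), is no member by the rule. It stood above the whole inhibitor sum in both libraries, at 449.6 and 457 TPM against 101.9 and 99.2 TPM. The lowest sum, the ratio to the D-type cyclins and the Cdkn2d share hold only without Cdkn1c.

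All 13 members of the transcription group reached 1 TPM, and they summed to 582 ± 19.7 TPM, 9.49% of the members' total. Ccnl2 (120.4 and 113 TPM) and Ccnl1 (99.7 and 91.0 TPM), cyclins of Cdk11 that are linked to splicing, led the group over all transcripts. Their protein-coding transcripts summed to only 41.7 ± 2.43 TPM for Ccnl2 and 15.8 ± 3.31 TPM for Ccnl1. Ccnh (90.02 and 86.3 TPM) is the cyclin of Cdk7 (12.9 and 12.7 TPM) in the CDK-activating kinase, and the deposited model of Cdk7 is a single transcript of 7595 nt. Cdk9 (55.6 and 63.7 TPM) is the elongation kinase of P-TEFb, and Cdk11b (63.1 and 55.6 TPM) a kinase of splicing and transcription.

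The lowest members of the group were Cdk13, Cdk19, Ccnk and Cdk12. Ccnc, the Mediator cyclin, stood at 77.1 and 68.6 TPM, Cdk8 at 30.1 and 29.4 TPM and its paralogue Cdk19 at 6.33 and 5.53 TPM. Cdk8 was 4.97 ± 0.387 times Cdk19. Cdk12 (8.49 and 9.36 TPM), Cdk13 (5.44 and 6.07 TPM) and their cyclin Ccnk (6.62 and 6.09 TPM) lay close together. Cdk10, which overlaps the annotated gene Gm20388 on the same strand, stood at 20.4 and 21.2 TPM.

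The median level of the 28 division-cycle members (the first 5 groups) was above that of the 13 transcription members. On the log2(TPM + 1) scale the difference of medians was 0.98 in replicate 1 and 0.92 in replicate 2, with a mean of 0.95 ± 0.04 (SD, n = 2). No test was made over genes. The difference was 1.49 over protein-coding transcripts alone, 1.23 over members at 1 TPM or more, and 0.67 between means in place of medians.

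Cdk5, known from neurons, and the related PCTAIRE and PFTAIRE kinases, some of which bind cyclin Y, summed to 148.3 ± 6.18 TPM. Cdk16 was highest at 65.8 and 75.9 TPM, Cdk5 stood at 27.5 and 29.6 TPM, Cdk17 at 29.5 and 27.1 TPM and Cdk14 at 20.4 and 19.5 TPM. Cdk5 and Cdk17 changed places between the libraries. Cdk15 (14 and 20 counts) and Cdk18 (8 and 12 counts) stayed below 1 TPM. Their TPM was lower in replicate 2 (0.39 against 0.54 and 0.10 against 0.15) although their counts were higher there. TPM also depends on the lengths of the transcripts that reads are assigned to, and the leading transcript of Cdk18 was Cdk18-205 in replicate 1 and Cdk18-201 in replicate 2.

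Of the remaining members, Ccni stood at 129 and 121 TPM, Ccng2 at 74.2 and 72.5 TPM, Ccng1, a target of p53, at 46.6 and 36.8 TPM, Ccnj at 37.8 and 32.9 TPM and Cdk20 at 5.82 and 6.82 TPM. Ccng1 was below Ccng2 in both libraries, at 0.569 ± 0.0841 times its level.

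Within 22 pairs of related members, 21 had deposited TPM intervals that lay apart the same way in both libraries. Intervals also lay apart for 90.3% of all 78068760 pairs of protein-coding genes at 1 TPM. That background leaves out genes below 1 TPM in a library, whereas some related pairs held Ccna1, Ccnb3, Cdk15, Cdk18, Cdkn2a or Cdkn2b. The shares are of unlike sets, and no difference from the background can be read from them. The pair that did not separate was Cdkn2a and Cdkn2b, both below 1 TPM. A ratio could be formed for 19 pairs, and 10 pairs both lay apart and differed by 2-fold or more. Very unequal pairs were Cdk4 to Cdk6, Ccna2 to Ccna1, Cdk17 to Cdk18 at 127 ± 12.4 (26.1 ± 0.696 on TPM + 1) and Cdk14 to Cdk15 at 36.0 ± 5.63 (14.3 ± 0.603 on TPM + 1). Near-equal pairs were Cks1b to Cks2 and, at 0.818 ± 0.0151, Ccnl1 to Ccnl2, the latter at 0.384 ± 0.102 over protein-coding transcripts.

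**Figure D2:**
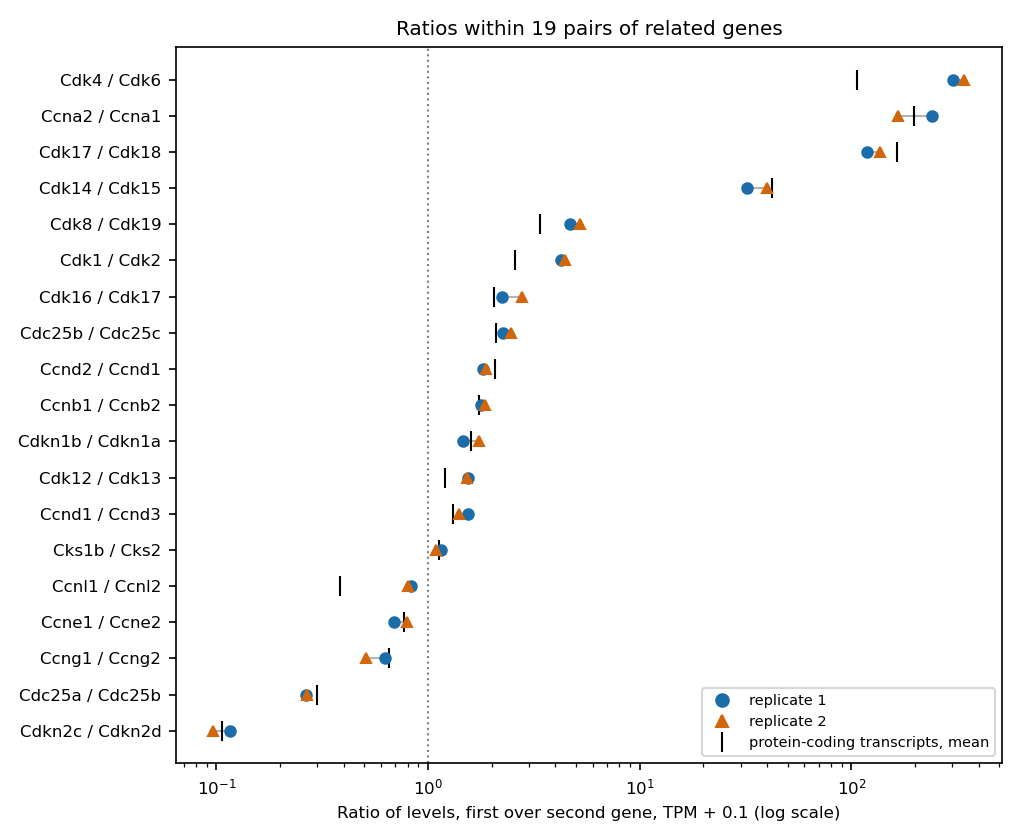
Ratio of levels (TPM + 0.1, log axis) within the 19 pairs of related members that allow a ratio; circles are replicate 1, triangles replicate 2, and black bars the mean ratio of the protein-coding transcripts. Over all transcripts Cdk4 over Cdk6 is highest at 322 and Cdkn2c over Cdkn2d lowest at 0.106, over protein-coding transcripts Ccna2 over Ccna1 is highest at 198, and the replicates fall on the same side of 1 for every pair.

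In the order of all 52 levels, 18 of 51 neighbouring members had intervals apart in both libraries. No such count was made over other genes, so it describes this order only and not a trait of the members. Cdk4 and Ccnd2 each stood apart from the next lower member. Cks1b, Ccnb1, Cdk1 and Cks2 followed, between 329.8 and 294 TPM, and no neighbours among them were separated. Ccna2, Ccnd1, Ccnb2 and Ccnd3 came next, each apart from the one before it. From Cdk6 at 6.59 TPM down to Cdk13 at 5.76 TPM, no neighbours among Cdk6, Ccnk, Cdk20, Cdkn2c, Cdk19 and Cdk13 were separated.

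The transcript tables held 217 transcripts of the members. Among the 30 members with 2 or more transcripts and at least 1 TPM, 28 had the same leading transcript in both libraries, against 91.5% of all 9585 such genes. The exceptions were 2 inhibitors with low counts. For Cdkn1a the 748-nt Cdkn1a-202 led in replicate 1 at 54.4%, and the 1910-nt Cdkn1a-201 led in replicate 2 at 56.7%. For Cdkn2c the lead passed from Cdkn2c-201 at 63.0% to Cdkn2c-202 at 55.8%. In both genes these transcripts are protein-coding.

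The median member at 1 TPM had 99.9% of its TPM on protein-coding transcripts, against 98.7% for all such genes. In 13 members that share was under 90% in a library, and in 3 of them, Cdk4, Ccnl1 and Ccnl2, the leading transcript was not protein-coding. These counts were not made over all genes, so they cannot be read as a trait of the members. Ccnl1 was most spread: its leading model, Ccnl1-205 of the nonsense-mediated decay class, held 18.4% and 20.2%. In Ccnl2 the retained-intron model Ccnl2-205 held 39.7% and 36.6%. In Cdk8 the protein-coding Cdk8-201 held 38.1% and 52.9%, with 881 and 1432 counts. In Cdk18, below 1 TPM, the retained-intron Cdk18-205 led in replicate 1 at 59.7% and the protein-coding Cdk18-201 in replicate 2 at 88.3%. A leading transcript with under 70% of its gene in a library was also found in 9 other members, again with no count over all genes. In all 9 it was protein-coding. Of the kinases, Cdk1-202 held 58.7% and 55.8%, Cdk9-201 64.2% and 52.9%, Cdk11b-201 47.4% and 52.1%, Cdk12-203 66.9% and 70.7% and Cdk15-201, below 1 TPM, 54.9% and 62.2%. Of the cyclins, Ccnc-203 held 63.5% and 60.5%, Ccng2-202 47.3% and 49.2% and Ccnh-201 64.7% and 62.4%, and the phosphatase transcript Cdc25b-202 held 68.7% in each library. Shares among transcripts are estimates from reads that several transcripts share.

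**Figure D3:**
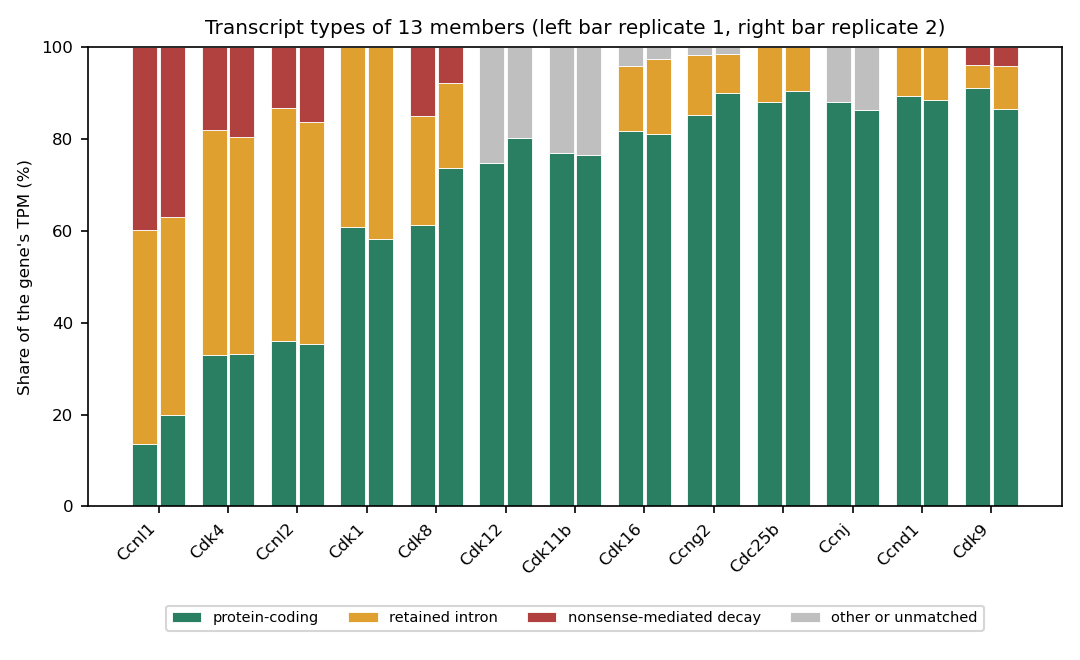
Share of each gene's TPM (%) by annotated transcript type for the 13 members at 1 TPM with under 90% on protein-coding transcripts in a library; the left bar of each pair is replicate 1, the right bar replicate 2. Ccnl1, Cdk4 and Ccnl2 have under 40% on protein-coding transcripts in both libraries, and Cdk1 has 60.9% and 58.2%.

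The replicates gave close values for the members. In a two-sided exact binomial test on rounded counts with TMM-scaled library sizes and Benjamini-Hochberg adjustment over 17148 genes, 0 of 49 tested members differed by 2-fold at an adjusted p under 0.05, against 2.94% of all tested genes. As an alternative, edgeR's exact test was run with an assumed coefficient of variation of 0.1, since 1 library against 1 gives no estimate of it. The binomial test compares these libraries and covers counting error only, since there is no replicate within a library. Amplified reads are not independent molecules, so it may understate even that error. The share over all tested genes also covers genes with few counts, unlike most members. The median absolute log2 ratio of the 46 members at 1 TPM was 0.10, against 0.11 over all 13799 tested genes at that level. By this measure the members lay close to the background.

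With no minimum fold, 22 members passed an adjusted p of 0.05, 12 higher in replicate 2 (18.3% of all tested genes) and 10 lower (17.2%). With spike-in scaling the split was 21 higher and 6 lower (28.4% and 10.2% of all tested genes), so such small differences depend on the scaling. The log2 ratio of 6 members changed sign with spike-in scaling and that of 1, Ccng2, with DESeq2 size factors, and none of these had passed with TMM scaling. With TMM scaling, 9 of the 25 tested division-cycle members passed. Of these, 8 were higher in replicate 2, among them Ccnd3 (log2 ratio 0.20, 95% interval 0.15 to 0.24) and Cks2 (0.17, 0.11 to 0.23). The ninth, Ccne2, was lower (-0.18, -0.24 to -0.12). Of the 13 tested transcription members, 3 were higher, such as Cdk9, and 5 lower, such as Cdk11b.

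With TMM scaling, Ccng1 was the only member at 1 TPM that differed by 1.2-fold or more, as did 16.7% of all tested genes at 1 TPM. It had 4257 counts in replicate 1 and 4026 in replicate 2, although replicate 2 was the deeper library. Its log2 ratio was -0.33 (95% interval -0.39 to -0.27), or 1.26-fold lower in replicate 2, with an adjusted p of 4.43e-23 in the exact binomial test. Ccng2 had 5207 and 6209 counts and a log2 ratio of 0.01.

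**Figure D4:**
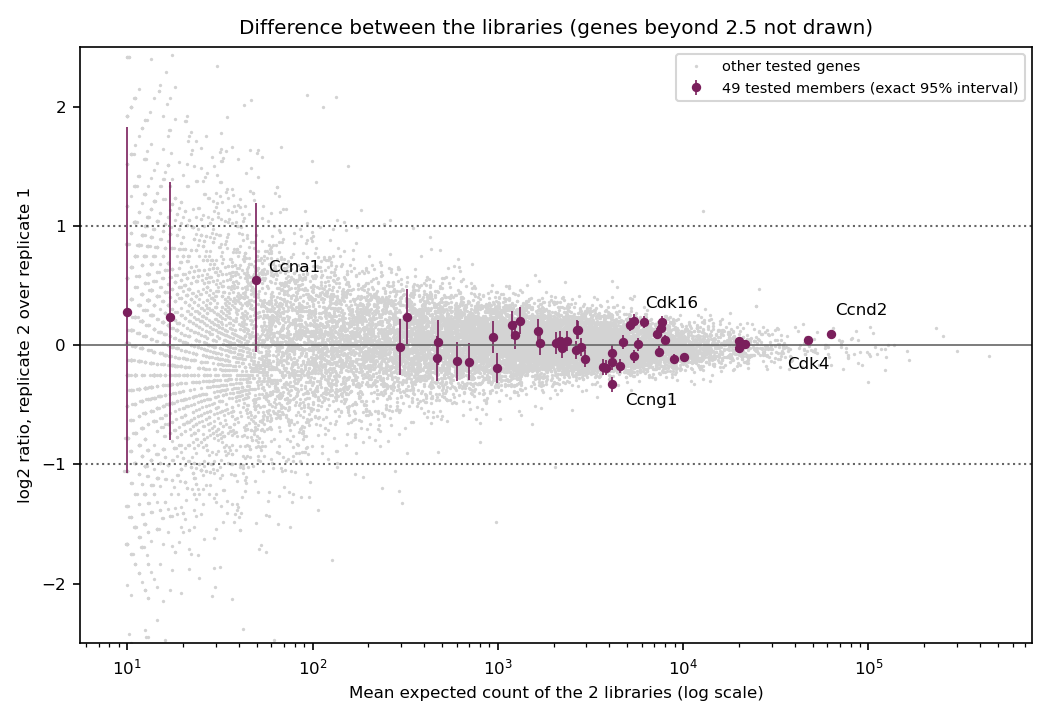
Log2 ratio of replicate 2 over replicate 1 against the mean expected count (log axis) for the 49 tested members, with exact 95% intervals, and for all other tested genes in grey; dotted lines mark 2-fold. Members with over 100 counts lie within 0.33 of 0, Ccng1 is lowest, and the widest intervals belong to members with few counts, such as Ccna1.

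The other genes of the pathway were taken from a list of 52 partners, brakes, transcription factors and degradation factors. The list was drawn up with earlier results of these data known. Of the 52 genes, 51 reached 1 TPM and 44 reached 10 TPM, with a median of 28.9 TPM. The exception was Ccno, a cyclin of multiciliated cells, with 14 and 30 counts. The highest were Cdkn1c (453 ± 5.30 TPM), Rbbp4, a histone chaperone of the DREAM complex (442 ± 20.2 TPM), Cdc20, an activator of the anaphase-promoting complex (247 ± 19.1 TPM), Cdk2ap1 (184 ± 26.9 TPM) and Tfdp1, the dimer partner of E2F factors (159.4 ± 0.983 TPM). In the exact binomial test 0 of the 52 differed by 2-fold between the libraries, against 2.94% of all tested genes. With no minimum fold, 17 were higher and 11 lower in replicate 2 at an adjusted p under 0.05 (18.3% and 17.2% of all tested genes). With spike-in scaling these were 26 and 3 (28.4% and 10.2% of all tested genes), so the shift with the scaling was shared by all genes. Among the brakes, the retinoblastoma family genes Rb1 (36.2 and 30.9 TPM) and Rbl1 (34.3 and 32.4 TPM) stood above Rbl2 (13.2 and 10.8 TPM). Of the transcription factors of the cycle, E2f4 (71.1 and 76.6 TPM) and E2f5 (73.2 and 70.7 TPM), known as repressors, stood above the activators E2f1 (11.0 and 11.8 TPM), E2f2 (5.16 and 6.17 TPM) and E2f3 (13.4 and 14.5 TPM) in both libraries. That order did not hold for every repressor: E2f6 stood at 55.1 and 57.0 TPM and E2f7 at 22.9 and 26.9 TPM, while E2f8, at 11.8 and 11.2 TPM, lay below E2f3 in both libraries. The retinoblastoma and E2f genes were named after their values were seen.

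Some levels are less certain than their SD shows. Of the 52 members, 27 overlap another measured gene, 21 on the opposite strand and 9 on the same strand, and 12 had a fractional count, which marks reads shared with another gene. For Cdk4 the deposited interval in replicate 1 ran from 2054 to 2114 TPM, below its deposited TPM, since the interval belongs to the posterior mean (2085 TPM). Intervals also lay below the TPM for Cdk4 in replicate 2 and, among others, for Ccnd2, Ccnb1 and Ccna2 in both libraries. Pairs and neighbours were called apart by these intervals, while the order of levels used the TPM itself.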

How the data were processed

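Gene and transcript tables of 2 libraries were used. Per the file headers, the authors deposited, as signal, an expected count (an estimated read number), TPM (maximum likelihood and posterior mean values) and FPKM. The authors also deposited a percent for each transcript's share of its gene, and lower and upper bounds of a TPM interval of unstated level. Deposited notes name assembly mm10 and annotation M4; aligner, quantifier and strand setting: not given in the sources used here. TPM sums over all rows, spike-ins included (15.2% and 14.8% of TPM). Spike-in, phiX and 26248 numeric rows (4.44 and 13.2 counts) stayed out of library sizes and tests.

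Symbols, transcript types and coordinates came from GENCODE M21, a later annotation of the same assembly, which matched 42462 genes; start regions came from RefSeq. The members and gene lists were chosen with earlier results of these data known. Named genes were all members, plus the 5 highest of the other pathway genes and those under 1 TPM or called between libraries, and transcripts that led at under 70% or differed between libraries; the Rb and E2f genes were added after their values were seen. Folds used TPM + 0.1. Levels are means ± SD of 2 libraries, with no test over genes. Expected counts were rounded for the exact binomial test, at a summed count of at least 20, with edgeR 4.0.16 TMM sizes in R 4.3.3 and scipy 1.17.1; confidence intervals are exact at 95%. DESeq2 1.42.0 size factors, spike-in and total scaling, edgeR's exact test, other thresholds and single libraries were alternatives. A quasi-likelihood fit needs replicates within a group and was not possible for 1 library against 1. The binomial test was tested on simulated data for replicate 2 against replicate 1 over 17154 genes: it called 100% of 100 genes changed 3-fold and 100% of 100 changed 8-fold, with 2 false calls. The simulated counts were Poisson, the spread that the binomial test itself assumes, and changed genes had a mean count of at least 100. The simulation therefore cannot tell how the test behaves at lower counts or with further spread between real libraries. In log2 ratios of counts a prior count of 1 was added.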

Additional observations from a re-analysis of the deposited data

How the results depend on the processing

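The count of members at 1 TPM was 46 or 47 under every alternative run (0.5 and 5 TPM, posterior mean TPM, FPKM, TPM without spike-ins, protein-coding transcripts, and 46 to 47 with either library left out). The difference of medians between division-cycle and transcription members kept its direction in all alternatives: it was 1.23 over members at 1 TPM or more, 0.67 with means, 1.49 over protein-coding transcripts (an alternative chosen after seeing the data), and 0.92 to 0.98 with either library left out. The count of members differing between libraries, 0 at a 2-fold minimum, was 22 without a fold minimum and 1 with a 1.2-fold minimum, and stayed at 0 under the scaling, filter and edgeR alternatives. The 21 separated pairs fell to 10 when a 2-fold difference was also required, on TPM + 0.1 and on TPM + 1, and were 21 in each library alone. The same leading transcript was found in 27 of 30 members by posterior mean shares, 29 of 32 without a level filter and 25 of 26 at 10 TPM. Of the 52 member levels, 46 moved by more than 1 SD when TPM was rescaled without spike-ins, 19 over protein-coding transcripts and 14 with posterior mean TPM. Rescaling without spike-ins multiplies every level of a library by the same factor, so it cannot change the order of members within a library. No ratio within a pair crossed 1. Between libraries, the log2 ratio of 6 tested members changed sign with spike-in scaling (Ccna2, Ccnb2, Cdc25c, Cdk14, Cdk7 and Cdkn2c). Depth limits Ccna1, Cdk15, Cdk18, Cdkn2b, Ccnb3 and Cdkn2a, which had from 0 to 63 counts. No paired analysis was possible because there is 1 group with no second group to pair.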
